A study of Sus scrofa with 5 samples.

Results

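Split-thickness skin grafts (STSG) on pig wounds that had received a focal adhesion kinase inhibitor (FAKI) hydrogel were compared with untreated grafts of the same kind at day 90. The STSG+FAKI library held 3829 cells with at least 500 detected genes, of 4091 barcodes. The STSG library held 5706 such cells, of 6074 barcodes. Together these were 9535 of the 28654 cells that met the same rule in 5 libraries. Levels were taken over the whole library as counts of unique molecular identifiers (UMIs) per 1000000 UMIs (CPM), and as the share of cells with at least 1 UMI of a gene. They covered the 14672 gene symbols that the files give for 20286 gene identifiers.

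Pigs in this study had full-thickness skin wounds that received split-thickness grafts, and grafts were collected at day 7 or day 90, next to unwounded skin. The treated grafts lay under the inhibitor hydrogel, whose dressings were replaced on alternate days. The STSG grafts are labelled as untreated, and a hydrogel without inhibitor is not among the labels. Tissue was dissociated with enzymes and the cells were captured with droplet chemistry that reads the 3′ ends of transcripts.

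Focal adhesion kinase, encoded by PTK2, is a tyrosine kinase at the sites where integrins tie a cell to its matrix. It passes on tension from the matrix to the actin cytoskeleton, to YAP and TAZ and to growth factor signalling, and it is studied in skin because tension on a wound favours scarring and contracture. The inhibitor blocks the enzyme and does not delete the gene, so PTK2 RNA does not check the treatment.

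Each side was 1 library, so a difference between them had no replicate check, and no test between treatments was possible. Intervals are exact 95% intervals and cover counting error only, and the number of pigs behind each library is not stated in the labels. A gene was counted as higher or lower when its CPM differed by at least 1.5-fold. Because these are sums over all cells, fewer cells of a type and less RNA per cell cannot be told apart in them. Many results are therefore also given with the cell mix held equal. For this, the CPM of each cell class, or each cluster, was averaged with the same shares for both libraries.

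The STSG+FAKI library held 50159160 UMIs with a median of 8180 per cell, and the STSG library held 79217940 with a median of 9877. The median share of UMIs from mitochondrially encoded genes was 4.23% in STSG+FAKI cells and 2.94% in STSG cells, against 2.95% to 4.87% in the other 3 libraries. Some cell barcodes occurred in more than 1 library. The STSG+FAKI and STSG libraries shared 70 barcodes, STSG+FAKI and unwounded skin shared 152, and STSG and unwounded skin shared 133. In the 2 pairings with unwounded skin, the larger copy held a median of 90.4 and 75.9 times the UMIs of the smaller copy. Among kept cells, 146 of the STSG+FAKI library, with 12.7% of its UMIs, carried such a barcode, and so did 125 of the STSG library, with 6.01% of its UMIs. In unwounded skin 118 kept cells, with 26.6% of its UMIs, carried such a barcode, and its levels given below include them. The smaller copies were 42 kept cells in each day 90 library, with 0.275% of UMIs in STSG+FAKI and 0.138% in STSG. Without every shared barcode, 781 genes were higher and 390 lower. Without the smaller copies alone, 749 were higher and 394 lower, close to the counts with all barcodes given next. The source of the shared barcodes was not tested.

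The treated graft held more RNA of epidermal, glandular, endothelial and pericyte genes and of interferon-induced genes, and less RNA of wound matrix, matrix proteases, macrophages and plasma cells. Of 7360 genes with at least 10 CPM in either library, 748 were higher in STSG+FAKI (10.2%) and 392 were lower (5.33%). The median over all 7360 genes was 0.10 on the log2 scale of the CPM ratio. Most of these calls were not kept with the cell mix held equal. Of the 748 higher genes, 78 (10.4%) were also higher with equal class shares and 44 (5.88%) with equal cluster shares. Of the 392 lower genes, 83 (21.2%) were also lower with equal class shares and 40 (10.2%) with equal cluster shares. PTK2 itself had 63.7 CPM in STSG+FAKI and 46.4 CPM in STSG, a ratio of 1.37 (1.31 to 1.44), and a ratio of 1.03 with equal class shares. Within blood endothelial-like cells PTK2 had 67.8 CPM in STSG+FAKI and 69.0 CPM in STSG. Within the pericyte or smooth muscle-like class PTK2 had 153 CPM in STSG+FAKI and 147 CPM in STSG.

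The 12 genes with the highest ratios, among those at 100 CPM or more in either library, were led by keratinocyte genes. KRTDAP, a differentiation-associated gene of the epidermis, had 136 CPM in STSG+FAKI and 9.99 CPM in STSG, 13.6-fold higher (12.6 to 14.7). The keratin of the upper epidermal layers KRT1 had 115 CPM in STSG+FAKI and 10.1 CPM in STSG, and its partner KRT10 had 356 CPM in STSG+FAKI and 52.0 CPM in STSG. PERP, a desmosome protein, had 152 CPM in STSG+FAKI and 22.1 CPM in STSG. The keratins of the basal layer followed, KRT14 with 739 CPM in STSG+FAKI and 151 CPM in STSG, and KRT5 with 434 CPM in STSG+FAKI and 88.3 CPM in STSG. All 6 were lower in both grafts than in unwounded skin, where KRT14 had 3566 CPM and KRTDAP 612 CPM. Most of this RNA lay in few cells. The 10 richest cells held 52.4% of the KRT14 UMIs in STSG+FAKI and 68.7% in STSG, and for KRT1 they held 67.3% in STSG+FAKI and 98.9% in STSG. Equal class shares gave ratios of 1.08 for KRT14 and 1.03 for KRT5, and of 2.66 for KRTDAP, 2.27 for KRT1 and 2.26 for KRT10.

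Secretory genes on this list were PHEROC, with 149 CPM in STSG+FAKI and 30.0 CPM in STSG, and the secretoglobin SCGB1D1, with 128 CPM in STSG+FAKI and 34.9 CPM in STSG. They lay in still fewer cells, since the 10 richest cells held 82.6% of the PHEROC UMIs in STSG+FAKI and 87.2% in STSG. Only 58 STSG+FAKI cells and 44 STSG cells held any SCGB1D1 UMI. By contrast, the other 4 genes on the list were spread over many cells. ISG15, an interferon-induced ubiquitin-like protein, had 766 CPM in STSG+FAKI and 299 CPM in STSG, 2.56-fold higher (2.52 to 2.60), against 1040 CPM in unwounded skin. ADIRF, a gene first described in adipogenesis, had 543 CPM in STSG+FAKI and 193 CPM in STSG. APOA1, an apolipoprotein, had 3148 CPM in STSG+FAKI and 1410 CPM in STSG. ABLIM1, an actin-binding LIM protein, had 106 CPM in STSG+FAKI and 48.6 CPM in STSG. The 10 richest cells held no more than 7.58% of the UMIs of any of these 4 in either library. Under equal class shares ISG15 and ADIRF stayed past 1.5-fold, at 1.60 and 1.64, while APOA1 was at 1.30 and ABLIM1 at 1.28.

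**Figure D1:**
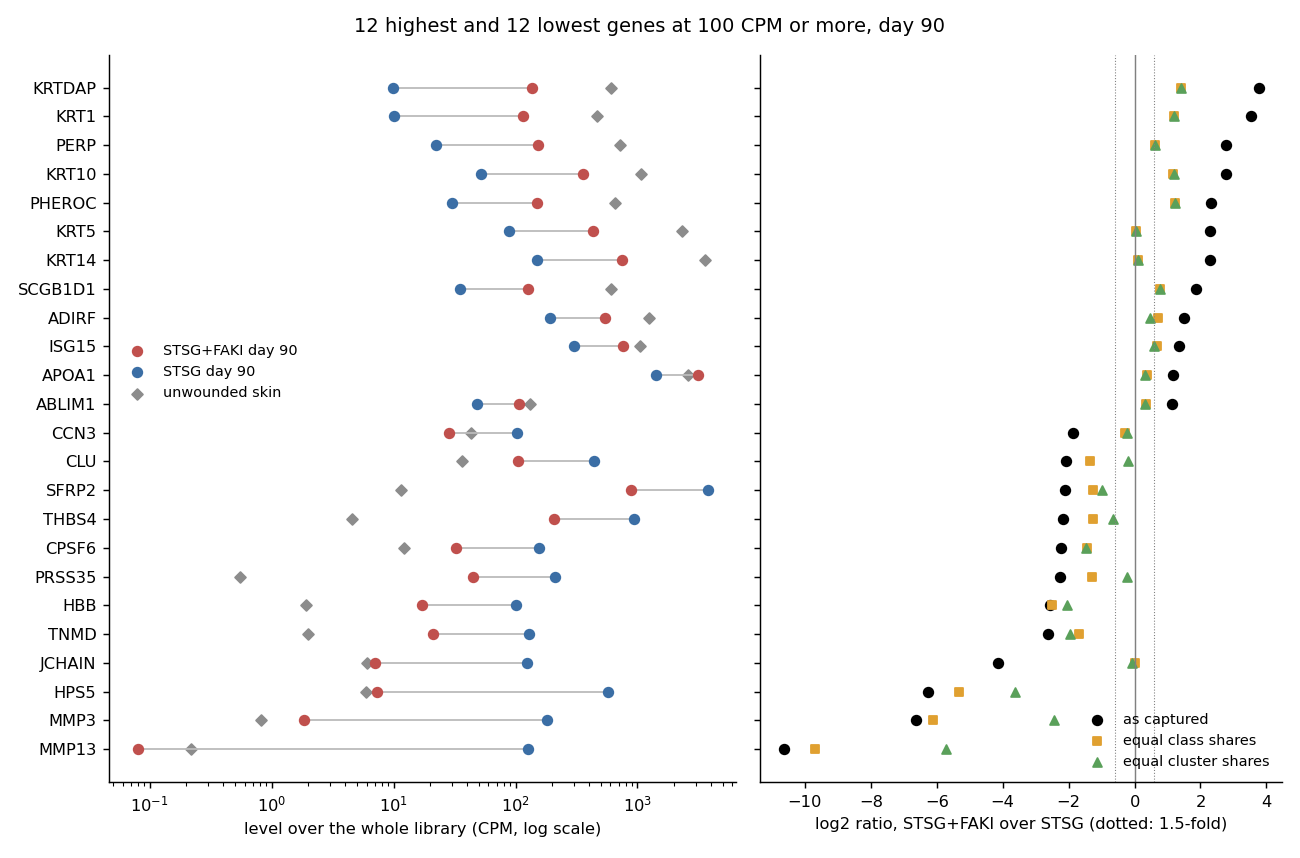
CPM (log axis) of the 12 genes with the highest and the 12 with the lowest STSG+FAKI to STSG ratio among genes at 100 CPM or more in either library; each gene has 1 point per library, with unwounded skin added. KRTDAP stands at 136 CPM in STSG+FAKI and 9.99 CPM in STSG at one end, and MMP13 at 0.0797 CPM in STSG+FAKI and 127 CPM in STSG at the other.

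The 12 lowest genes held interstitial proteases, tendon and wound matrix, and plasma cell and red cell genes. MMP13, a collagenase, had 4 UMIs (0.0797 CPM) in the whole STSG+FAKI library and 10099 UMIs (127 CPM) in STSG. MMP3, stromelysin, had 1.83 CPM in STSG+FAKI and 181 CPM in STSG, 98.6-fold lower. The feature that the files name HPS5 had 7.36 CPM in STSG+FAKI and 569 CPM in STSG. All 3 are among the leading genes of fibroblast cluster 7, which held 7 STSG+FAKI cells and 391 STSG cells. A cluster found almost wholly in 1 library may reflect that library and not a cell type. Cluster 7 was too small in STSG+FAKI to enter the equal cluster average, and its part in the result was not tested. In blood endothelial-like cells MMP13 had 0.0909 CPM in STSG+FAKI and 1.18 CPM in STSG, and HPS5 had 3.36 CPM in STSG+FAKI and 12.3 CPM in STSG, so their low level in these cells also differed between the libraries.

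SFRP2, a secreted Wnt modulator of dermal fibroblasts, had 878 CPM in STSG+FAKI and 3758 CPM in STSG, 4.28-fold lower, against 11.6 CPM in unwounded skin. THBS4, a thrombospondin of tendon and wound matrix, had 208 CPM in STSG+FAKI and 934 CPM in STSG, and 4.56 CPM in unwounded skin. TNMD, tenomodulin of tendon, had 20.9 CPM in STSG+FAKI and 129 CPM in STSG. The treated graft stood nearer to unwounded skin than the untreated graft did for each of these 3, and still well above it. PRSS35, a serine protease-like protein, had 44.7 CPM in STSG+FAKI and 212 CPM in STSG. CLU, a secreted chaperone, had 105 CPM in STSG+FAKI and 441 CPM in STSG. With equal cluster shares SFRP2 and TNMD stayed past 1.5-fold, at ratios of 0.50 and 0.256, and THBS4 did so at 0.632. PRSS35 was at 0.858 and CLU at 0.876. Both are also among the leading genes of cluster 7, which did not enter that average, and its part in their ratios was not tested.

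JCHAIN, the joining chain of secreted antibodies, had 7.00 CPM in STSG+FAKI and 124 CPM in STSG. Its equal-class ratio of 1.01 left no difference, because plasma cells were met in STSG alone and such a class cannot enter that average. HBB, a globin of red cells, had 17.0 CPM in STSG+FAKI and 101 CPM in STSG, and 10 cells held 96.4% of it in STSG+FAKI and 99.0% in STSG. HBB stood at -2.57 on the log2 scale, at -6.39 without shared barcodes and at -1.11 with the mitochondrial and doublet filter, so its size rests on a few cells. CPSF6 had 32.7 CPM in STSG+FAKI and 155 CPM in STSG, and 10 cells held 54.2% of it in STSG+FAKI and 42.4% in STSG. CCN3, a matricellular protein, had 28.4 CPM in STSG+FAKI and 103 CPM in STSG. Averaged per cell instead of over all UMIs, the log2 ratio of CCN3 was -0.26 and no longer past 1.5-fold. At 2000 UMIs per cell CCN3 was found in 94.5% of STSG+FAKI and 88.5% of STSG mast-like cells, and in 2.43% of STSG+FAKI and 11.6% of STSG fibroblast-like cells.

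The cell mix differed between the grafts in the same directions. Cells of all 5 libraries were clustered together, and clusters were named from marker genes, so that "fibroblast-like" and similar names rest on RNA alone and were rebuilt here. Blood endothelial-like cells made up 36.7% (35.1 to 38.3) of 3693 STSG+FAKI cells and 24.1% (23.0 to 25.3) of 5388 STSG cells. Pericyte or smooth muscle-like cells were 27.3% of STSG+FAKI and 17.9% of STSG cells. Fibroblast-like cells were 14.7% (13.6 to 15.9) of STSG+FAKI and 32.8% (31.6 to 34.1) of STSG cells. The graft that had the inhibitor was thus vascular in the majority of its captured cells, as was unwounded skin, with 42.3% endothelial-like, 19.8% pericyte or smooth muscle-like and 8.56% fibroblast-like cells.

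Immune classes were smaller in the treated graft, and mast-like cells were the exception. Macrophage or monocyte-like cells were 1.38% (1.03 to 1.81) of STSG+FAKI and 4.81% (4.25 to 5.41) of STSG cells. T or NK-like cells were 2.06% of STSG+FAKI and 3.95% of STSG cells. B or plasma-like cells were 0 of 3693 STSG+FAKI cells, which allows a share of up to 0.0812% by a floor of 3 cells and up to 0.0998% by the exact interval, and 58 STSG cells (1.08%). Mast-like cells were 4.79% of STSG+FAKI and 4.25% of STSG cells, with overlapping counting intervals. Keratinocyte-like cells were 62 STSG+FAKI cells (1.68%) and 29 STSG cells (0.538%), with a median of 14091 UMIs in the STSG+FAKI library and 7174 in STSG. Such shares follow what enzymatic digestion releases as well as what the tissue holds, and release was not measured.

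**Figure D2:**
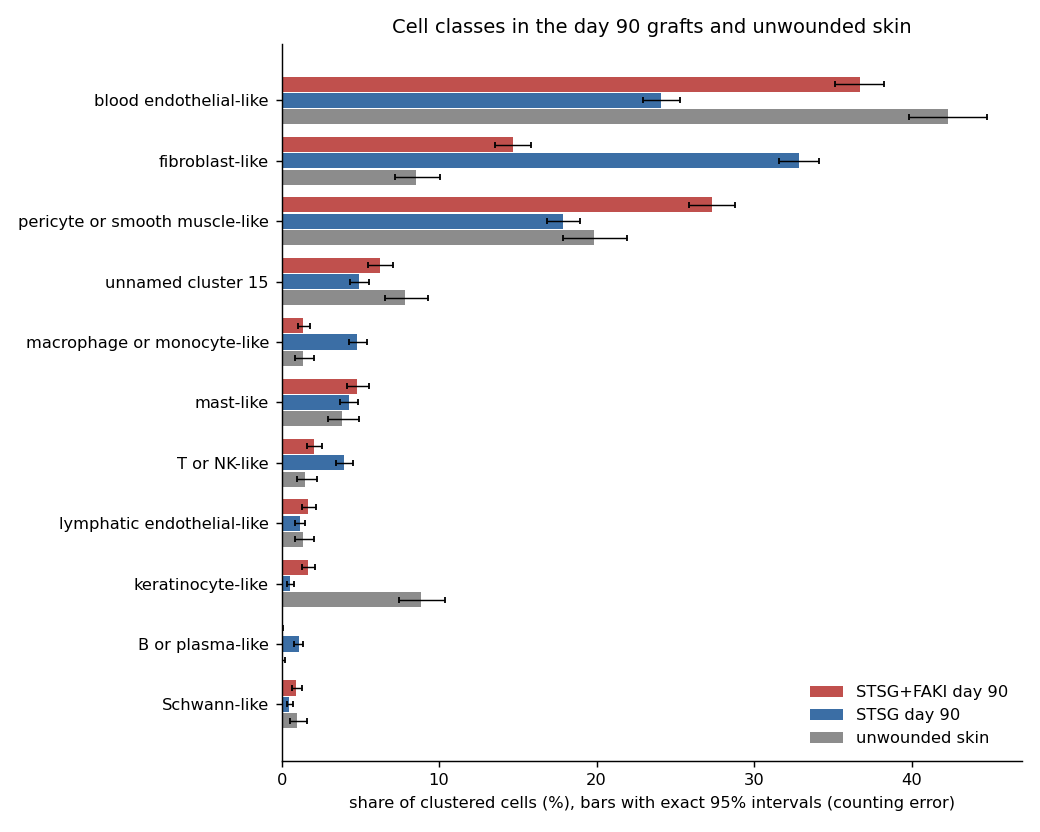
Share of cells (percent, with exact 95% intervals for counting error) in each cell class for STSG+FAKI day 90, STSG day 90 and unwounded skin, 1 library each. Endothelial-like and pericyte or smooth muscle-like cells make up more of the STSG+FAKI library and fibroblast-like and macrophage or monocyte-like cells more of the STSG library.

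Marker lists summed over the whole library moved with these shares. All 8 counted keratinocyte markers were higher, with a median of 2.71 on the log2 scale, and their summed level was 1756 CPM in STSG+FAKI and 329 CPM in STSG, against 8425 CPM in unwounded skin. Under equal class shares 4 of the 8 were higher and 1 lower, with a median of 0.64. All 5 counted glandular markers were higher, with a median of 1.19, and 1 was higher under equal class shares, with a median of 0.47. Of 10 blood endothelial markers 9 were higher, with a median of 0.85 that became 0.08 with equal class shares. All 9 macrophage or monocyte markers were lower, with a median of -1.09 that became 0.13 with equal class shares. Their summed level was 317 CPM in STSG+FAKI and 724 CPM in STSG. Of 10 fibroblast markers 4 were lower and none higher, with a median of -0.54 that became 0.25. The pericyte or smooth muscle list had 3 of 9 higher, the mast list 2 of 6 and the Schwann list 2 of 5, with none lower in these 3. The T or NK and the B or plasma lists each had 2 of 3 lower and none higher, and the 1 counted erythroid marker, HBB, was lower. The lymphatic list (3 counted) and the neutrophil list (2 counted) each had 1 higher and 1 lower, and the single counted dendritic, melanocyte and skeletal muscle markers were not past 1.5-fold. No adipocyte marker reached 10 CPM.

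**Figure D3:**
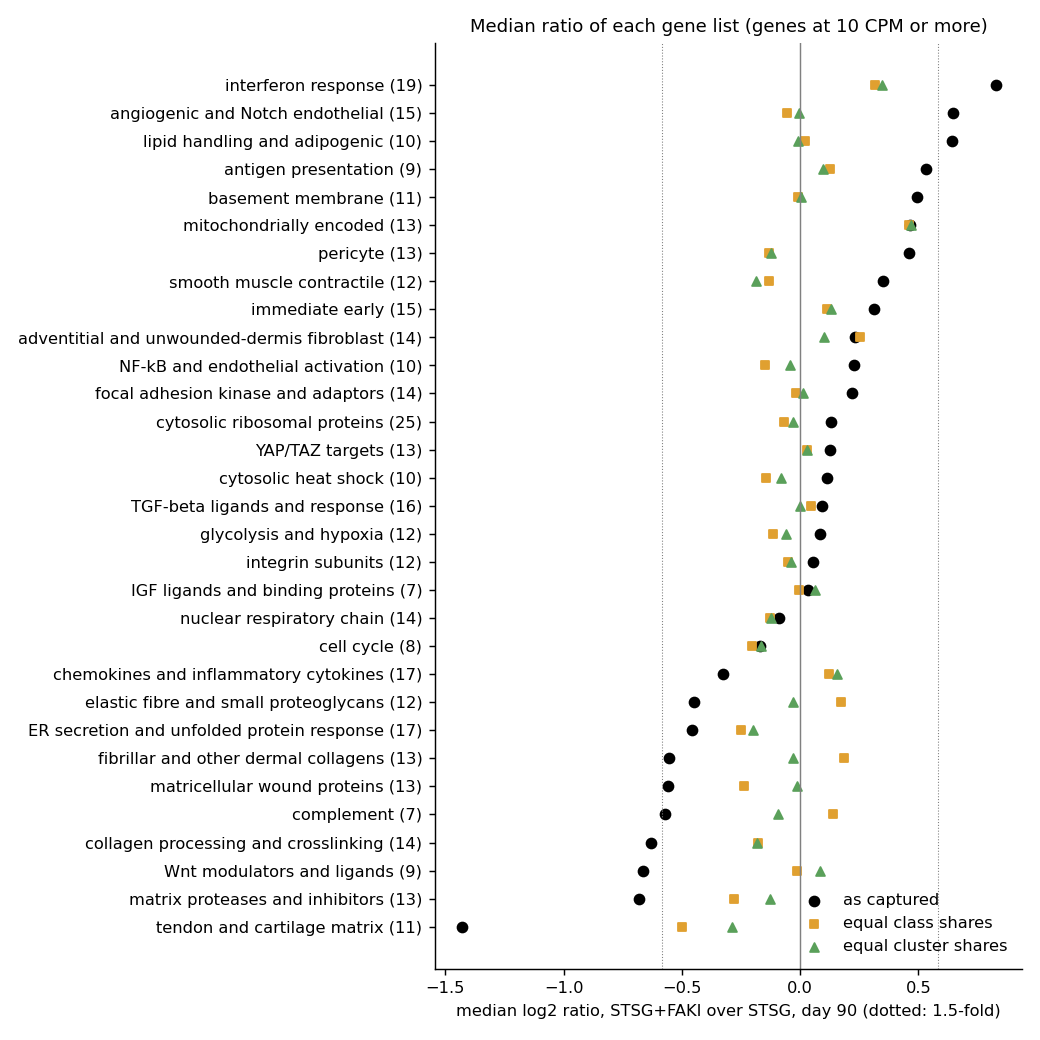
Median log2 CPM ratio of STSG+FAKI over STSG for each gene list (horizontal axis), as captured and with equal class and equal cluster shares. The interferon list stands at 0.83 and the tendon and cartilage list at -1.43 as captured, and both lie nearer to 0 when the cell mix is held equal.

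Matrix genes were lower in the treated graft, most of all those of stiff connective tissue. Of 11 counted genes of tendon and cartilage matrix 10 were lower and none higher, against a background of 5.33% lower, with a list median of -1.43. COMP, a cartilage and tendon thrombospondin, had 2.83 CPM in STSG+FAKI and 45.4 CPM in STSG. The fibril-nucleating collagen COL11A1 had 168 CPM in STSG+FAKI and 438 CPM in STSG, and the small proteoglycan ASPN had 305 CPM in STSG+FAKI and 876 CPM in STSG. ACAN, the large cartilage proteoglycan aggrecan, had 27.6 CPM in STSG+FAKI and 74.4 CPM in STSG. With equal class shares 4 of the 11 were lower and 1 was higher, and the median was -0.50. With equal cluster shares 4 were lower and the median was -0.29.

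Collagens fell less, and the median of their list turned with equal class shares. Of 13 dermal collagens 5 were lower and none higher, with a median of -0.56, which became 0.18 with equal class shares. COL5A2, of the fibril core, had 757 CPM in STSG+FAKI and 1487 CPM in STSG, and COL12A1, which links fibrils, had 594 CPM in STSG+FAKI and 1073 CPM in STSG. The main fibrillar collagens did not reach 1.5-fold: COL1A1 had 33903 CPM in STSG+FAKI and 48002 CPM in STSG, and COL3A1 had 13779 CPM in STSG+FAKI and 18789 CPM in STSG. With equal class shares the COL1A1 ratio was 1.29 and that of COL3A1 was 1.24. Of 14 genes of collagen processing and crosslinking 8 were lower and none higher, with a median of -0.63, which was -0.18 with 2 lower under equal class shares. The crosslinking oxidase LOX had 173 CPM in STSG+FAKI and 317 CPM in STSG. The prolyl hydroxylase subunit P4HA3 had 77.3 CPM in STSG+FAKI and 199 CPM in STSG.

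Of 13 matricellular wound proteins 6 were lower and none higher, with a median of -0.56. Under equal class shares 1 was lower and 1 higher, with a median of -0.24. Fibronectin, FN1, had 946 CPM in STSG+FAKI and 1838 CPM in STSG. Tenascin C, TNC, had 134 CPM in STSG+FAKI and 343 CPM in STSG, and TGFBI, a TGF-beta-induced adhesion protein, had 224 CPM in STSG+FAKI and 586 CPM in STSG. With equal cluster shares these 3 did not differ by 1.5-fold, at ratios of 1.04, 0.991 and 1.19 for FN1, TNC and TGFBI. Elastic fibre genes and small proteoglycans had 5 of 12 lower and none higher, with a median of -0.45. With equal class shares their median turned to 0.17 with 1 lower, and with equal cluster shares it was -0.03 with none lower. Basement membrane genes went the other way, with 4 of 11 higher and none lower and a median of 0.49. Among them COL4A2 had 1018 CPM in STSG+FAKI and 667 CPM in STSG, and COL18A1 had 900 CPM in STSG+FAKI and 537 CPM in STSG. With equal class shares their list stood at -0.01, and no member was past 1.5-fold.

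Matrix proteases and their inhibitors had 8 of 13 lower and 2 higher, with a median of -0.68. Under equal class shares 4 were lower and none higher, with a median of -0.28. Besides MMP13 and MMP3, the gelatinase MMP2 had 682 CPM in STSG+FAKI and 1516 CPM in STSG, and MMP9, the gelatinase of myeloid cells, had 1.91 CPM in STSG+FAKI and 39.8 CPM in STSG. The inhibitors parted. TIMP1 had 638 CPM in STSG+FAKI and 1223 CPM in STSG, and its ratio of 0.522 was 0.510 with equal class shares and 0.544 with equal cluster shares. TIMP3 had 361 CPM in STSG+FAKI and 207 CPM in STSG, a ratio of 1.75 that was 1.21 with equal class shares. For TIMP1 the difference was thus as large with the cell mix held equal.

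Many genes of vessels and their pericytes were higher over the whole library. Of 15 angiogenic and Notch endothelial genes 8 were higher and none lower, against a background of 10.2% higher, with a median of 0.65. HEY1, a transcription factor switched on by Notch, had 83.4 CPM in STSG+FAKI and 46.2 CPM in STSG, and the Notch ligand JAG1 had 141 CPM in STSG+FAKI and 79.0 CPM in STSG. That median was -0.05 with equal class shares. The pericyte list had 5 of 13 higher and the smooth muscle contractile list 4 of 12 higher, with none lower in either and medians of 0.46 and 0.35, both -0.13 with equal class shares. RGS5, a regulator of G-protein signalling in pericytes, had 1066 CPM in STSG+FAKI and 639 CPM in STSG. The contractile genes summed to 4295 CPM in STSG+FAKI and 4406 CPM in STSG, so their total was not higher. MYH11, smooth muscle myosin, had 197 CPM in STSG+FAKI and 90.7 CPM in STSG. The actin ACTA2, shared by smooth muscle and myofibroblasts, had 1104 CPM in STSG+FAKI and 990 CPM in STSG.

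Genes on the inhibitor's own pathway were set against the 10.2% of all genes that were higher and the 5.33% that were lower. Of 14 counted genes of the focal adhesion kinase and adaptor list 3 were higher and none lower, with a median of 0.22. These were PTK2B, the related kinase PYK2, with 15.3 CPM in STSG+FAKI and 8.86 CPM in STSG, the adhesion protein TNS1 with 96.8 CPM in STSG+FAKI and 51.9 CPM in STSG, and the actinin ACTN4 with 232 CPM in STSG+FAKI and 147 CPM in STSG. With equal class shares none of the 14 was past 1.5-fold, and the list median was -0.02. Integrin subunits split, with 3 of 12 higher (ITGA6, ITGB4 and ITGA7) and 3 lower (ITGA11, ITGAV and ITGA8). ITGA6 and ITGB4, which join cells to basement membrane, were among the higher ones, ITGA6 with 107 CPM in STSG+FAKI and 60.4 CPM in STSG, and ITGB4 with 81.9 CPM in STSG+FAKI and 41.6 CPM in STSG. ITGA11, a collagen receptor of fibroblasts, had 14.1 CPM in STSG+FAKI and 47.8 CPM in STSG. With equal class shares none of the 12 integrin subunits was higher and 2 were lower, with a median of -0.05. The YAP and TAZ list held targets and also members of the pathway, such as TEAD1 and WWTR1. Of its 13 counted genes 2 were higher and none lower, with a median of 0.13. The much-used reporters CCN1 and CCN2 differed by far less than 1.5-fold, CCN1 with 296 CPM in STSG+FAKI and 308 CPM in STSG, and CCN2 with 279 CPM in STSG+FAKI and 275 CPM in STSG. TGF-beta ligands and response genes had 2 of 16 higher and 2 lower, with a median of 0.09, next to 0.10 over all genes.

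Interferon response genes formed the list with the highest median. Of 19 counted genes 14 were higher and none lower, with a median of 0.83. Besides ISG15, the interferon-inducible protein IFI6 had 1495 CPM in STSG+FAKI and 843 CPM in STSG. The transcription factor IRF1 had 487 CPM in STSG+FAKI and 267 CPM in STSG, the antiviral GTPase MX1 87.8 CPM in STSG+FAKI and 40.8 CPM in STSG, and the antiviral enzyme RSAD2 38.9 CPM in STSG+FAKI and 15.1 CPM in STSG. For each of these, unwounded skin was closer to STSG+FAKI than to STSG, with 1408 CPM of IFI6, 711 CPM of IRF1, 120 CPM of MX1 and 62.4 CPM of RSAD2. With equal class shares the list median was 0.32, and 2 of the 19 genes were higher and none lower, against a median of -0.03 over all genes. With equal cluster shares it was 0.35, and 3 were higher. The antigen presentation list had 3 of 9 higher and none lower, with a median of 0.53 that became 0.13 with equal class shares.

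Chemokines and inflammatory cytokines split, with 5 of 17 higher and 7 lower and a median of -0.33. Under equal class shares 3 were higher and 4 lower, and the median turned to 0.12. CCL2, which draws monocytes, had 1863 CPM in STSG+FAKI and 1136 CPM in STSG. CXCL12, of stromal and vessel cells, had 371 CPM in STSG+FAKI and 217 CPM in STSG. Lower ones were CXCL14, with 287 CPM in STSG+FAKI and 643 CPM in STSG, the neutrophil attractant CXCL8, with 20.6 CPM in STSG+FAKI and 63.0 CPM in STSG, and IL11, a cytokine of fibrotic stroma, with 2.31 CPM in STSG+FAKI and 60.8 CPM in STSG. CCL8, of macrophages, had 45.0 CPM in STSG+FAKI and 89.5 CPM in STSG, but its ratio was 1.59 with equal class shares, in the other direction. The complement list had 3 of 7 lower, with a median of -0.57 that turned to 0.14 under equal class shares. The lower genes were the 3 chains of C1q made by macrophages. C1QB, for example, had 98.2 CPM in STSG+FAKI and 244 CPM in STSG, and its ratio was 1.12 with equal class shares. NF-kB and endothelial activation genes had 1 of 10 higher and none lower.

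Wnt modulators and ligands had 5 of 9 lower and 3 higher, with a median of -0.67 that was -0.01 with equal class shares. With SFRP2, SFRP4 was lower at 215 CPM in STSG+FAKI and 341 CPM in STSG, and SFRP1 at 35.9 CPM in STSG+FAKI and 105 CPM in STSG. Among insulin-like growth factor binding proteins, IGFBP2 had 208 CPM in STSG+FAKI and 623 CPM in STSG, while IGFBP7, of vessels, had 7672 CPM in STSG+FAKI and 4528 CPM in STSG. Their list of 7 genes had 1 higher and 2 lower. Of 10 lipid handling and adipogenic genes 6 were higher and none lower, with a median of 0.64 that was 0.02 with equal class shares. FABP4, a fatty acid carrier of adipocytes and capillaries, had 1185 CPM in STSG+FAKI and 758 CPM in STSG. GPIHBP1, the capillary anchor of lipoprotein lipase, had 163 CPM in STSG+FAKI and 77.5 CPM in STSG. APOE, a lipid-carrying apolipoprotein, had 889 CPM in STSG+FAKI and 551 CPM in STSG, and was higher with equal class shares too, at 1.76. Genes of adventitial and unwounded-dermis fibroblasts had 4 of 14 higher and 2 lower, with a median of 0.23 and of 0.26 with equal class shares. CLEC3B, tetranectin, had 792 CPM in STSG+FAKI and 385 CPM in STSG, and 1369 CPM in unwounded skin.

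All 13 mitochondrially encoded genes had a ratio above 1, with 3 past 1.5-fold and a median of 0.47, which stayed at 0.46 with equal class and 0.47 with equal cluster shares. COX1, a subunit of cytochrome oxidase, had 7035 CPM in STSG+FAKI and 3830 CPM in STSG, a ratio of 1.84, while COX2 of the same complex had 10731 CPM in STSG+FAKI and 9090 CPM in STSG, a ratio of 1.18. The 14 nuclear genes of the respiratory chain had none past 1.5-fold and a median of -0.09. Ribosomal proteins (25 genes), glycolysis and hypoxia (12) and the cell cycle (8) had none past 1.5-fold in either direction. Immediate early genes had 3 of 15 higher and none lower, with MYC at 249 CPM in STSG+FAKI and 123 CPM in STSG. Cytosolic heat shock genes had 1 of 10 higher and none lower. Genes of secretion and the unfolded protein response had 1 of 17 higher and 1 lower, with a median of -0.46. The lower one was MANF, with 113 CPM in STSG+FAKI and 217 CPM in STSG.

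Shares of cells with a UMI were compared after each cell was thinned to 2000 UMIs, which left out 283 STSG+FAKI and 453 STSG cells below that depth. Of 4422 genes found in at least 5% of cells in either library, 247 were found in a 1.5-fold higher share of STSG+FAKI cells (5.59%) and 168 in a lower share (3.8%). ISG15 was found in 49.8% of STSG+FAKI and 27.4% of STSG cells, and ADIRF in 34.8% of STSG+FAKI and 16.7% of STSG cells. SFRP2 was found in 10.3% of STSG+FAKI and 34.5% of STSG cells, and THBS4 in 6.74% of STSG+FAKI and 27.4% of STSG cells. Without thinning, ISG15 was found in 66.0% of STSG+FAKI and 46.1% of STSG cells, and THBS4 in 9.98% of STSG+FAKI and 35.3% of STSG cells, so the order was the same at full depth. KRT14 was found in 3.47% of STSG+FAKI and 1.12% of STSG cells. In blood endothelial-like cells, which should lack it, KRT14 was found in 0.999% of STSG+FAKI and 0.485% of STSG cells, whose median depths were 9116 and 8602 UMIs before thinning. SFRP2, for its part, was found in 0.922% of STSG+FAKI and 5.66% of STSG endothelial-like cells, and in 45.2% of STSG+FAKI and 75.2% of STSG fibroblast-like cells. The fibroblast share therefore differed well beyond the level in a class without the gene, and that level itself differed with the library.

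**Figure D4:**
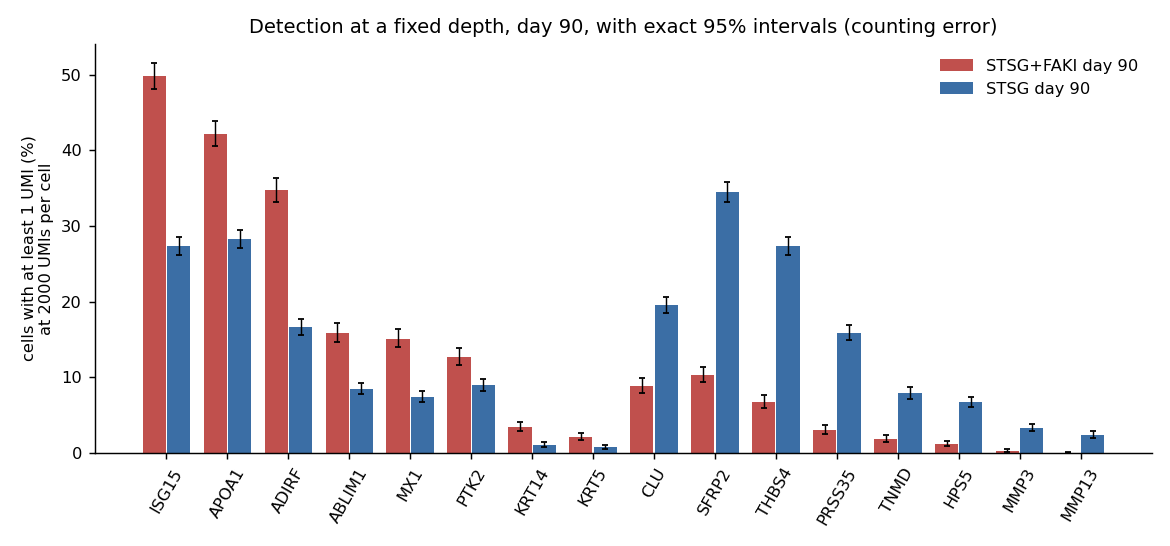
Share of cells with at least 1 UMI (percent) for 16 genes at 2000 UMIs per cell, with STSG+FAKI left of STSG and exact 95% intervals for counting error. ISG15, APOA1 and ADIRF are found in more STSG+FAKI cells, and SFRP2 and THBS4 in more STSG cells.

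Within the blood endothelial-like and the pericyte or smooth muscle-like classes few genes differed. Genes with at least 50 CPM in either library were compared in the 7 named classes with at least 50 cells on both sides. In blood endothelial-like cells (1355 STSG+FAKI and 1299 STSG cells) 21 of 2601 genes were higher (0.807%) and 23 lower (0.884%). ISG15 had 1408 CPM in STSG+FAKI and 897 CPM in STSG, 1.57-fold higher (1.54 to 1.60), and MX1 had 140 CPM in STSG+FAKI and 86.3 CPM in STSG. COX1 had 7502 CPM in STSG+FAKI and 3551 CPM in STSG. The cell cycle inhibitor CDKN1C had 192 CPM in STSG+FAKI and 110 CPM in STSG, and FGL2, a fibrinogen-like protein, had 114 CPM in STSG+FAKI and 67.1 CPM in STSG. TIMP1 had 518 CPM in STSG+FAKI and 1121 CPM in STSG, 2.16-fold lower, with 362 CPM in unwounded skin. SLCO2A1, a prostaglandin carrier, had 113 CPM in STSG+FAKI and 204 CPM in STSG. COL1A1 had 511 CPM in STSG+FAKI and 1146 CPM in STSG in these cells. Collagen RNA in endothelial-like cells moved with the fibroblast share of the library, 14.7% in STSG+FAKI and 32.8% in STSG, and its part in the COL1A1 result was not tested.

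The pericyte or smooth muscle-like class (1008 STSG+FAKI and 964 STSG cells) had 54 of 2599 genes higher (2.08%) and 85 lower (3.27%). ISG15 had 470 CPM in STSG+FAKI and 226 CPM in STSG, and COX1 had 8766 CPM in STSG+FAKI and 3482 CPM in STSG. RERGL, a Ras-like gene of smooth muscle, had 368 CPM in STSG+FAKI and 209 CPM in STSG, and PGM5, a phosphoglucomutase-like protein of muscle adhesion plaques, had 241 CPM in STSG+FAKI and 125 CPM in STSG. TIMP1 had 886 CPM in STSG+FAKI and 2363 CPM in STSG, 2.67-fold lower. WFDC1, a secreted whey acidic protein, had 197 CPM in STSG+FAKI and 526 CPM in STSG, and the transglutaminase TGM2 had 22.3 CPM in STSG+FAKI and 134 CPM in STSG. Cluster 3, which RERGL helps to lead, held 466 of the STSG+FAKI and 359 of the STSG cells of this class. The contractile list had none of 12 genes past 1.5-fold, with a median of 0.01, so the whole-library rise of 4 contractile genes was not seen within the class. TIMP1 in STSG was higher in this class than in STSG fibroblast-like cells, where it had 1005 CPM.

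Fibroblast-like cells (542 STSG+FAKI and 1769 STSG cells) had 103 of 1937 genes higher (5.32%) and 148 lower (7.64%), but different clusters filled the class in the 2 libraries. Cluster 16, led by CPZ, CCDC80 and PI16, held 361 of the 542 STSG+FAKI cells (66.6%) and 282 of the 1769 STSG cells (15.9%). Cluster 10, led by THBS4, COL11A1 and SFRP2, held 144 STSG+FAKI cells (26.6%) and 1005 STSG cells (56.8%). Cluster 7, led by IL11 and MMP13, held 7 STSG+FAKI cells and 391 STSG cells. With clusters 10 and 16 given equal weight and clusters 6 and 7 left out, 6 genes were higher and 24 lower. Most of the class difference was thus not kept. The parts of the weighting and of the cells left out were not tested. The leading genes of a cluster are not a result of the comparison across clusters, and the values that follow are within 1 cluster at a time.

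SFRP2, TNMD and the actin ACTA2 were lower in STSG+FAKI inside both clusters, and the first pair are also leading genes of cluster 10. In cluster 10 SFRP2 had 6497 CPM in STSG+FAKI and 11264 CPM in STSG, TNMD had 83.5 CPM in STSG+FAKI and 414 CPM in STSG, and ACTA2 had 402 CPM in STSG+FAKI and 625 CPM in STSG. In cluster 16 SFRP2 had 1266 CPM in STSG+FAKI and 4122 CPM in STSG, TNMD had 84.8 CPM in STSG+FAKI and 229 CPM in STSG, and ACTA2 had 21.3 CPM in STSG+FAKI and 84.2 CPM in STSG. All 3 genes were thus past 1.5-fold in each cluster. In T or NK-like cells ACTA2 had 20.4 CPM (4 UMIs) in STSG+FAKI and 62.0 CPM (38 UMIs) in STSG. The ACTA2 levels in cluster 16 were close to these, and RNA from other cells was not tested as their source. CCN3 and COMP were lower in cluster 10, CCN3 with 38.1 CPM in STSG+FAKI and 320 CPM in STSG, and COMP with 33.5 CPM in STSG+FAKI and 163 CPM in STSG. P4HA2, a collagen prolyl hydroxylase, was higher in cluster 10, with 383 CPM in STSG+FAKI and 209 CPM in STSG. In cluster 16, S100A4, a calcium-binding protein of motile cells, had 2528 CPM in STSG+FAKI and 1159 CPM in STSG, and CCL2 had 564 CPM in STSG+FAKI and 303 CPM in STSG. COL1A1 differed by less than 1.5-fold in both, at ratios of 1.23 in cluster 10 and 1.21 in cluster 16. The adventitial gene CLEC3B was 5.69-fold higher over the whole class, with 1086 CPM in STSG+FAKI and 191 CPM in STSG, and had a ratio of 1.28 inside cluster 16. TNMD, P4HA2, S100A4 and the other genes of this paragraph outside the 6 highest and 6 lowest of the class were picked after their values were seen.

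Cluster 15, led by C4A and SFRP4 and left without a name because it scored close to 2 classes, held 230 STSG+FAKI cells and 266 STSG cells. Its SFRP2 level was 2906 CPM in STSG+FAKI and 6762 CPM in STSG, in the same direction as in clusters 10 and 16. PTGS2, the inducible cyclooxygenase, had 449 CPM in STSG+FAKI and 164 CPM in STSG, the opioid precursor PENK 102 CPM in STSG+FAKI and 33.2 CPM in STSG, and the collagen COL6A5 198 CPM in STSG+FAKI and 63.5 CPM in STSG.

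Macrophage or monocyte-like cells were few in the treated graft, with 51 STSG+FAKI and 259 STSG cells, and 130 of 2222 genes were higher (5.85%) and 144 lower (6.48%). CCL2 had 8776 CPM in STSG+FAKI and 3804 CPM in STSG, 2.31-fold higher (2.23 to 2.39). CCR7, a homing receptor of migrating antigen-presenting cells, had 104 CPM in STSG+FAKI and 24.7 CPM in STSG. MMP9 had 92.5 CPM in STSG+FAKI and 886 CPM in STSG. Arginase, ARG1, had 10 UMIs in STSG+FAKI (18.5 CPM) and 505 in STSG (211 CPM), and the anti-inflammatory cytokine IL10 had 48.1 CPM in STSG+FAKI and 211 CPM in STSG. TIMP1, lower in the vascular classes, had 1204 CPM in STSG+FAKI and 1131 CPM in STSG here. MMP9 and ARG1 are among the leading genes of the unnamed cluster 12, which held 29 STSG+FAKI and 97 STSG cells outside this class. CCR7 leads a dendritic-like cluster at Leiden resolution 0.5. The part of such neighbouring cells in these values was not tested.

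T or NK-like cells (76 STSG+FAKI and 213 STSG cells) had 329 of 2403 genes higher (13.7%) and 334 lower (13.9%), at a median of 1968 UMIs per cell in STSG+FAKI and 2180 in STSG. The cytokine genes IL17A and IL17F were the lowest. IL17A had 0 UMIs in STSG+FAKI and 123 in STSG, at least 13.2-fold lower with a floor of 3 UMIs for the library, and the exact interval of the ratio reached 0.0949. IL17F had 1 UMI in STSG+FAKI and 146 in STSG, a ratio of 0.0213 (0.000537 to 0.121). The cluster these genes lead, cluster 17, held 21 STSG+FAKI and 84 STSG cells. MX1 had 102 CPM in STSG+FAKI and 39.2 CPM in STSG, and ISG15 had 921 CPM in STSG+FAKI and 598 CPM in STSG.

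Lymphatic endothelial-like cells (63 STSG+FAKI and 62 STSG cells) had 247 of 2812 genes higher (8.78%) and 411 lower (14.6%). ISG15 had 187 CPM in STSG+FAKI and 57.9 CPM in STSG, and the antigen-presenting chain HLA-DRA had 203 CPM in STSG+FAKI and 75.1 CPM in STSG. BGN, the proteoglycan biglycan, had 16.9 CPM in STSG+FAKI and 263 CPM in STSG. CLU had 3.07 CPM (2 UMIs) in STSG+FAKI and 180 CPM (115 UMIs) in STSG. After thinning, CLU was found in 3.33% of 60 STSG+FAKI and 5.26% of 57 STSG cells of this class, with overlapping counting intervals. The CLU level in STSG thus came with a small share of cells, and the spread of its UMIs over these cells was not tested. Mast-like cells (177 STSG+FAKI and 229 STSG cells) had 370 of 2674 genes higher (13.8%) and 226 lower (8.45%). In them ISG15 had 114 CPM in STSG+FAKI and 271 CPM in STSG, and IFI6 had 38.9 CPM in STSG+FAKI and 132 CPM in STSG, opposite in direction to the vascular classes. The chemokine CCL1 had 36.3 CPM in STSG+FAKI and 276 CPM in STSG, and the inducible heat shock gene HSPA6 had 25.9 CPM in STSG+FAKI and 213 CPM in STSG.

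Set side by side, the interferon genes and TIMP1 differed between the grafts within several classes. ISG15 was higher by 1.5-fold or more in 4 of the 6 classes where it was counted (blood endothelial, pericyte or smooth muscle, lymphatic and T or NK), at 1.32 in macrophage or monocyte-like cells and at 0.421 in mast-like cells. IFI6 was 2.93-fold higher in fibroblast-like cells, with 503 CPM in STSG+FAKI and 171 CPM in STSG, but its ratio was 1.16 with clusters 10 and 16 weighted equally. The interferon list had a median of 0.31 in blood endothelial, 0.37 in pericyte or smooth muscle, 0.74 in lymphatic endothelial, 0.24 in T or NK, 0.14 in macrophage or monocyte and -0.54 in mast-like cells, on 5 to 14 counted genes each. In fibroblast-like cells it was 1.11 on 2 counted genes. TIMP1 was 1.5-fold lower or more in 5 of the 7 classes, at a ratio of 0.826 in T or NK-like and 1.06 in macrophage or monocyte-like cells. Fibroblast-like cells were among the 5, and there the TIMP1 ratio turned to 1.12 with clusters 10 and 16 weighted equally. COX1 was above 1 in all 7, with ratios between 1.32 in lymphatic endothelial-like and 2.52 in the pericyte or smooth muscle-like class. The mitochondrial share of the cells moved with COX1, 4.23% in STSG+FAKI and 2.94% in STSG, and the part of cell quality in it was not tested.

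**Figure D5:**
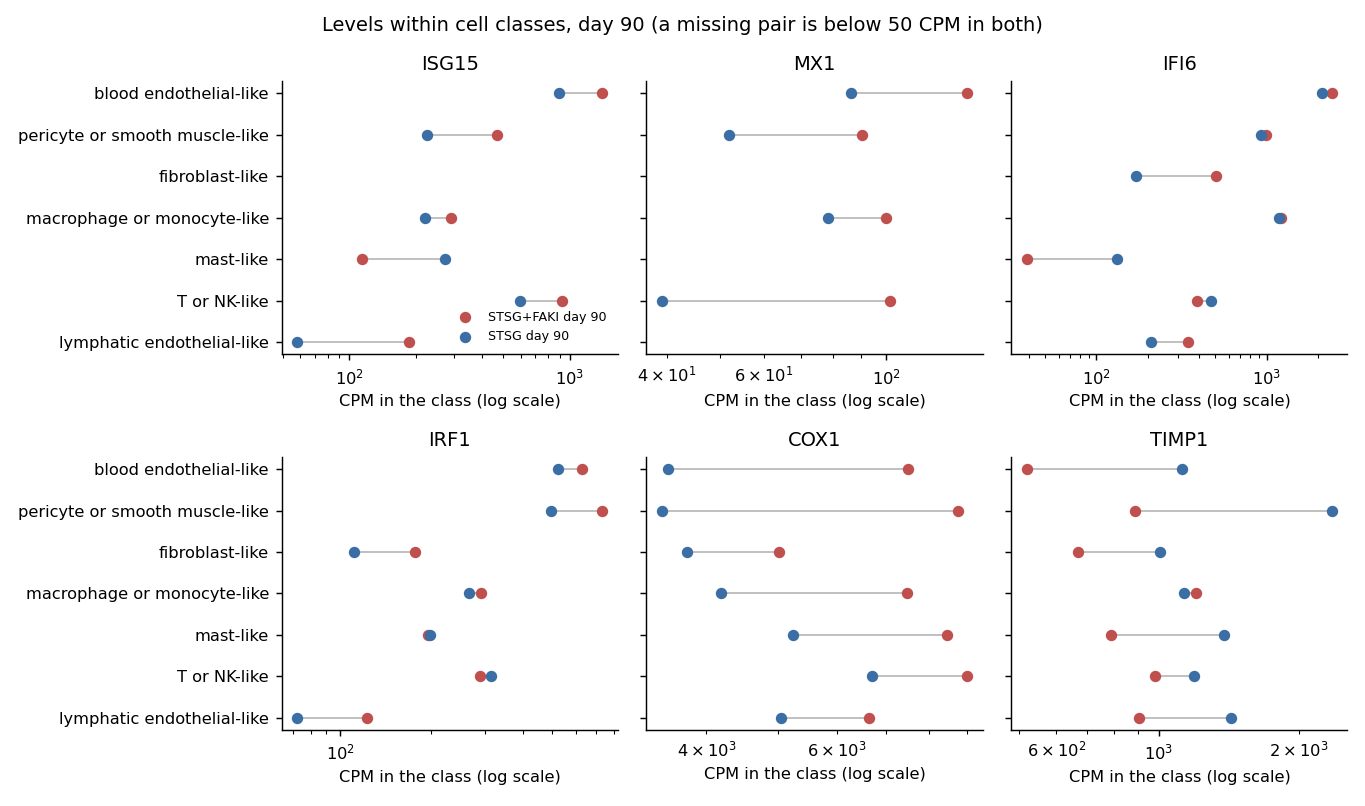
CPM (log axis) of ISG15, MX1, IFI6, IRF1, COX1 and TIMP1 within 7 cell classes in STSG+FAKI and STSG at day 90, 1 point per library. ISG15 is higher in STSG+FAKI in 5 classes and lower in mast-like cells, COX1 is higher in all 7, and TIMP1 is lower in 6 of 7 as captured.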

How the data were processed

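Per the submitters' processing notes, the authors used Cell Ranger, whose version is not given in the sources used here, and Seurat 3.1.1. The deposited matrices hold UMI counts per gene and barcode, 1 library per group, with no normalization by the authors. The aligner's genome build is not given in the sources used here.

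Cells with at least 500 genes were summed per library to CPM, and symbols with 10 CPM or more in either library (50 CPM within a class) were compared by ratio. Named genes were the 12 highest and 12 lowest ratios at 100 CPM, PTK2, up to 6 members of each gene list past 1.5-fold by level (the 2 most abundant where fewer than 2 passed), the 3 most abundant markers of each class, and the 6 highest and 6 lowest within each class at 100 CPM. ACAN, COMP, RSAD2, CCN1, CCN2, COX2 and P4HA2 were added after their values were seen. The 31 gene lists, 17 marker lists and the comparison itself were chosen with earlier results of these data known. For classes, cells above 25% mitochondrial UMIs were dropped. Scrublet as run by Scanpy marked only 3 STSG+FAKI and 83 STSG cells, so the top scores were removed at 0.8% per 1000 cells (116 STSG+FAKI and 255 STSG cells). The 26842 cells left in 5 libraries were clustered without integration (2000 variable genes, 30 components, 20 neighbours, Leiden resolution 1). Equal class shares used 13 groups of cells and equal cluster shares 23, each with at least 20 cells in both libraries. Genes at 0 were given a floor of 3 UMIs. The calculation of the CPM ratio and its interval was tested on simulated counts with known folds. Scanpy 1.11.5, leidenalg 0.10.2, SciPy 1.17.1 and pandas 2.3.3 were used with Python 3.11.15. UMIs of features without a symbol, 14.7% in STSG+FAKI and 15.3% in STSG, stayed in the totals and were not named.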

Additional observations from a re-analysis of the deposited data

Results flagged for a closer look

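Of the extreme genes at day 90, 6 had a log2 ratio of STSG+FAKI over STSG past 1.5-fold in one direction at day 90 and in the other direction at day 7. KRT1 was at 3.52 at day 90 and -1.36 at day 7, and KRT10 at 2.77 and -1.06. PHEROC was at 2.32 at day 90 and -3.60 at day 7, and APOA1 at 1.16 and -0.67. Cluster 26, which PHEROC leads, held only 1 STSG cell and 0 STSG+FAKI cells at day 7. HPS5 was at -6.27 at day 90 and 2.93 at day 7, and PRSS35 at -2.25 and 0.67. Each of the 4 libraries stands alone for its treatment and day, so the difference between days was not tested.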

How the results depend on the processing

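No paired analysis was possible because each group had 1 library, and for the same reason no library could be left out. Against 748 higher and 392 lower genes, a 50 CPM minimum gave 285 and 167, no minimum 2650 and 1310, a 2-fold rule 154 and 167, and the mean of per-cell CPM 469 higher genes. Equal class shares gave 119 higher and 113 lower genes, and equal cluster shares 55 and 68. Gene lists with a median past 1.5-fold were 3 higher and 4 lower. Median-ratio scaling gave 1 and 7, the mean of per-cell CPM 1 higher, and equal class or equal cluster shares 0 in both directions. Median-ratio scaling moved the median of all genes by 0.09 on the log2 scale.

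Among lists and named genes past 1.5-fold as captured, signs turned on the log2 scale under equal class shares for the angiogenic list (-0.054), JCHAIN (0.014), COL4A2 (-0.069), CCL8 (0.67), C1QB (0.17) and FABP4 (-0.15). Under equal cluster shares they turned for the angiogenic (-0.0043), Wnt (0.083) and lipid (-0.0086) lists and for FN1 (0.050), TGFBI (0.25), ITGA7 (-0.019), CCL8 (0.65), C1QB (0.17) and FABP4 (-0.21). Over all 31 lists, past 1.5-fold or not, the median changed sign in 15 under equal class shares and in 12 under equal cluster shares. These averages give both libraries the same cell mix, and they also weight each group by cells and not by UMIs. They leave out unclustered cells and groups with fewer than 20 cells in either library. Which of these steps turned a sign was not tested. Averaged per cell, CCN3, COL4A2, ACTN4, PTK2B, ITGAV, ITGA8, IFI6, CCL2 and FABP4 were no longer past 1.5-fold, and the cause was not tested. SFRP4 and FABP4 were not past it without shared barcodes.

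Detection thinned to 4000 UMIs gave 386 higher and 253 lower genes, from more genes counted. Leiden resolution 0.5 gave fibroblast-like shares of 20.9% in STSG+FAKI and 37.8% in STSG, as did counting cluster 15 with them, and macrophage or monocyte-like shares of 1.84% in STSG+FAKI and 5.94% in STSG. Equal weight for clusters 10 and 16 gave 6 higher and 24 lower genes in fibroblast-like cells. The alternatives on shared barcodes, equal cluster shares, clusters 10, 15 and 16 and the resolution within classes were chosen after seeing the data. Depth limits the small classes: 76 T or NK-like, 51 macrophage or monocyte-like and 63 lymphatic endothelial-like cells of the treated graft leave wide counting intervals.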
